A study of Mus musculus with 22 samples.

Results

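The 6 genes described here are Pou5f1, Sox2, Sall4, Utf1, Dppa2 and Dppa4, a named set of shared pluripotency genes chosen by symbol from the 19938 genes that the arrays measured. The set was named with earlier results of these data known, so it is not an independent sample of pluripotency genes. Their messenger RNA was followed in 22 samples of pluripotent mouse cell lines, with 1 array per sample. Embryonic germ (EG) cells are lines grown out of primordial germ cells, here from embryos of embryonic day 8.5, and embryonic stem (ES) cells are lines from embryos before implantation. Of the EG samples, 4 were lines in fetal calf serum (EG FCS), 4 had spent 48 hours in serum and were then moved to 2i (EG 2is), and 4 were derived directly in 2i (EG 2i). Of the ES samples, 5 were cultured in serum (ES FCS) and 5 in 2i (ES 2i), and established ES lines were also passed from one medium to the other. All samples carry the same strain label, 129SvEv x Oct4-delta-PE-GFP transgenic, on a mixed background. That transgene is a green fluorescent protein reporter under Pou5f1 (Oct4) regulatory sequence that lacks the proximal enhancer, and whether RNA of the transgene adds to the Pou5f1 signal was not tested. Serum cultures contained leukaemia inhibitory factor (LIF) and lay on a feeder layer of mouse embryonic fibroblasts. 2i cultures lay on laminin in N2B27 medium with LIF and a pair of kinase inhibitors, PD0325901 against MEK and CHIR99021 against GSK3. Medium and feeder layer therefore changed together and cannot be told apart.

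Pou5f1 encodes OCT4, a POU-domain transcription factor without which pluripotent cells are lost, and Sox2 encodes the HMG-box factor that binds DNA beside it. Together they occupy a composite octamer and Sox element at many genes of the pluripotent state, their own genes and Utf1 among them. Sall4 encodes a zinc finger factor that works with OCT4 and recruits the NuRD deacetylase complex. Utf1 encodes a chromatin protein of undifferentiated cells that binds at developmental genes. Dppa2 and Dppa4 encode a pair of SAP-domain proteins that bind chromatin as a heterodimer, keep a set of developmental and germline promoters open to activation, and lie next to each other on chromosome 16. All 6 are commonly read as markers of pluripotent cells.

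The genes' positions were taken from the RefSeq gene table of assembly GRCm38.p6. Pou5f1 lies at chr17:35506032-35510777, Sox2 at chr3:34649995-34652461, Sall4 at chr2:168748332-168767201, Utf1 at chr7:139943856-139945112, Dppa4 at chr16:48283735-48294292 and Dppa2 at chr16:48310274-48319513. RefSeq promoter sequences were at hand for only 3 of the 6 genes, and all 3 are shown. They belong to the gene with the largest fall in 2i, Utf1, and to the pair with none that passed the test, Pou5f1 and Sox2. Each is the 250 bases before the gene's start on the plus strand, with matches to the GC box letters GGGCGG on either strand in capitals.
Utf1: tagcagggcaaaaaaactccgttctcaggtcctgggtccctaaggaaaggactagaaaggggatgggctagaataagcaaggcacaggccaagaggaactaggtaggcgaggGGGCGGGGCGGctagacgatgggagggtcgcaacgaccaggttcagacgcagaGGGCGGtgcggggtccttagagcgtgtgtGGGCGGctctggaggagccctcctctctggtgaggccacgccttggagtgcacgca
Pou5f1: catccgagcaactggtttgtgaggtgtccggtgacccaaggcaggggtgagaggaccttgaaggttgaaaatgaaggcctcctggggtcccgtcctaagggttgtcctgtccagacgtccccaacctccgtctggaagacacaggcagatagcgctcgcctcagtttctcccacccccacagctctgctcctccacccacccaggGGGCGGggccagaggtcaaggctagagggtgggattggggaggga
Sox2: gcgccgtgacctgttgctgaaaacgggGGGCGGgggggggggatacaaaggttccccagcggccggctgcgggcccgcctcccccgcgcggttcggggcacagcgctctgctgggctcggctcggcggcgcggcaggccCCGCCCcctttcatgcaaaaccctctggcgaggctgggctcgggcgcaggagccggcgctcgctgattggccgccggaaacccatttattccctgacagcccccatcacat
The Utf1 window (chr7:139943606-139943855) held 4 GC boxes, 2 of which overlap, the Sox2 window (chr3:34649745-34649994) held 2 and the Pou5f1 window (chr17:35505782-35506031) held 1. Of all 32851 RefSeq promoter windows of that length 32.7% held at least 1. CCAAT was matched once in the Pou5f1 window, once in the Sox2 window and not in that of Utf1 (33.8% of all windows hold it), while ATTTGCAT, the octamer, was in none of the 3 (1.6% of all windows). CG dinucleotides numbered 27 in the Sox2 window, 14 in Utf1 and 8 in Pou5f1, and 8.6%, 29.4% and 43.0% of all windows had at least as many. Of these windows that of Sox2 held the most CG dinucleotides and that of Pou5f1 the fewest.

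Levels are log2 RMA values, which are comparable between arrays for 1 gene but not between genes, and differences are on the log2 scale with limma's standard error (SE), where 1 is a doubling. Each gene was fitted with all 19938 genes of the 22 arrays, with terms for group, labelled batch and labelled sex. A difference was called at a two-sided Benjamini-Hochberg adjusted p under 0.05 over all genes. Array medians lay between 5.54 and 5.62, arrays of a group correlated at 0.982 to 0.998, and the number of arrays limits the precision. The cell-type characteristic read EGCs for all 22 samples, including the 10 whose titles and source names say ES, and the groups were taken from the titles. Batch 1 held 16 arrays with all EG lines, and batch 2 held 6, all ES lines. Females were 1 of 4 EG FCS, 2 of 4 EG 2is, 3 of 4 EG 2i, 2 of 5 ES FCS and 2 of 5 ES 2i lines. The labels do not say which samples came from separate cultures, so p-values measure only the spread between these samples, which may be technical. As bulk RNA, the data cannot tell fewer expressing cells from less RNA per cell.

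The 6 genes did not respond alike to culture. In 2i Utf1 fell most and Dppa4 fell in every 2i group. Dppa2 fell in ES 2i and EG 2is lines with no call in EG 2i lines. Sall4 fell modestly in ES lines and was just short of a call in both EG comparisons. Neither Pou5f1 nor Sox2 was called in any comparison of cultures. Counted against serum, 2 of the 6 fell in EG 2i lines, 3 in EG 2is lines and 4 in ES 2i lines, and 0 rose in each. Of all genes 12.5%, 12.9% and 14.9% fell in these comparisons, and 11.4%, 12.7% and 16.6% rose. The median difference of the 6 was -0.20, -0.36 and -0.70 on the log2 scale, against 0.006, -0.011 and 0.0 over all genes. Arrays of the cultures did not overlap for 3, 4 and 3 of the 6 genes, against 24.2%, 24.5% and 22.2% of all genes. The 2 EG comparisons share the EG FCS lines. The largest gap between group means was 2.77 for Utf1, 1.32 for Dppa4, 1.14 for Dppa2, 0.42 for Sall4, 0.24 for Sox2 and 0.13 for Pou5f1, and its median over all genes was 0.25.

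**Figure D1:**
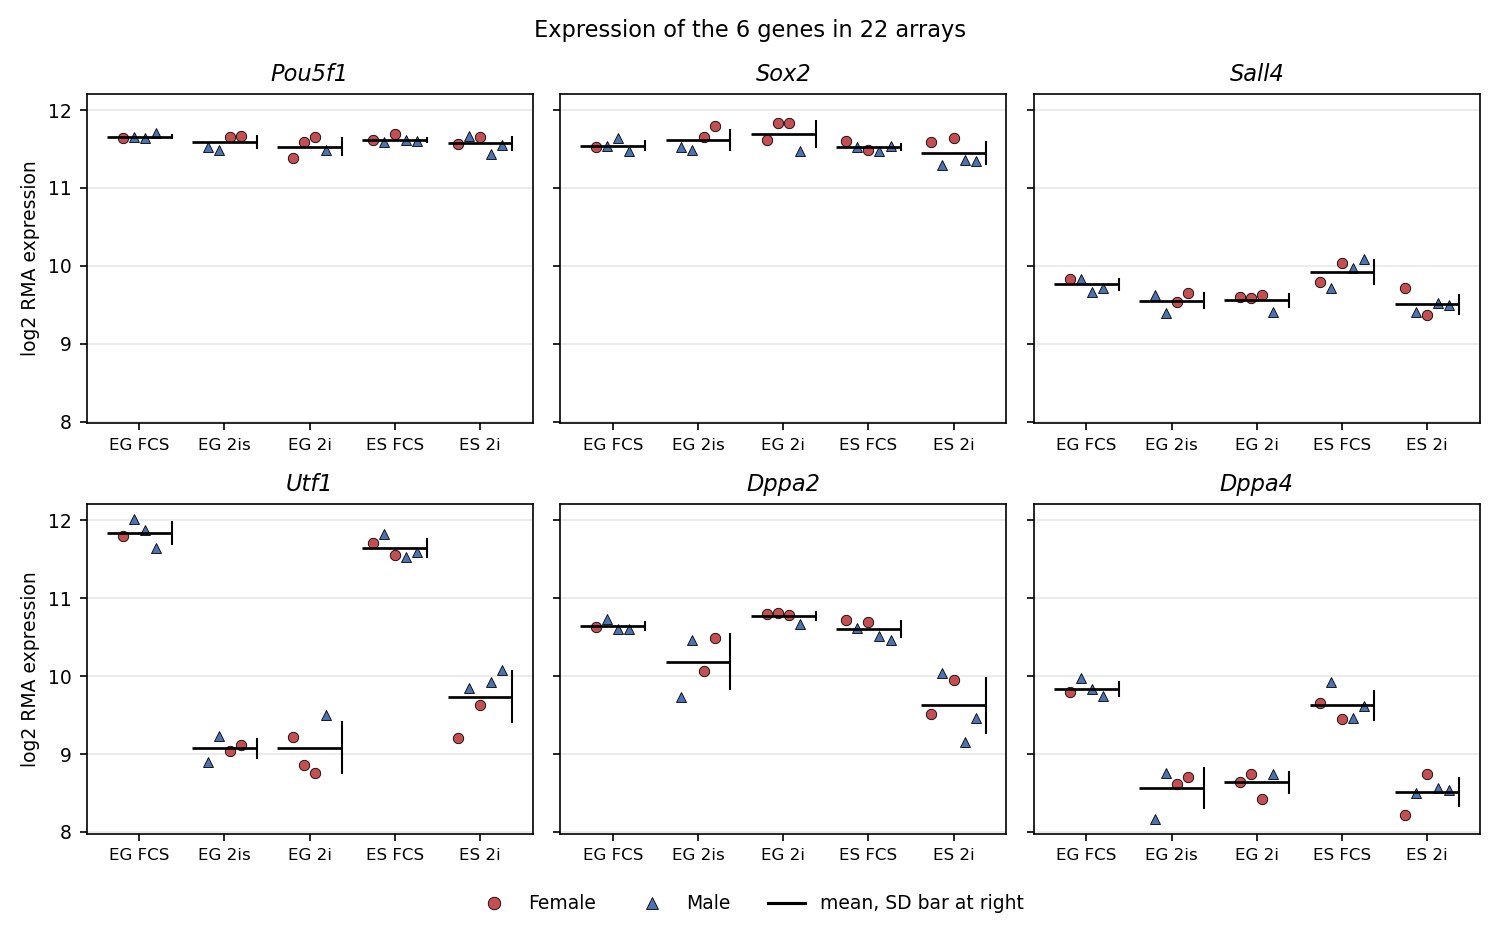
Log2 RMA expression of each of the 6 genes (vertical axis) in the 5 groups (horizontal axis), 1 point per array, red circles for female and blue triangles for male lines, with a horizontal line at the group mean and a bar of 1 SD on its right. Utf1 and Dppa4 stood high in both serum groups and low in all 3 2i groups, Dppa2 was low in ES 2i and EG 2is lines only, and Pou5f1 stayed between 11.38 and 11.7 in all arrays.

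Utf1, the chromatin protein gene, had the widest range. In EG FCS lines 1 to 4 it was at 11.80, 12.02, 11.88 and 11.65, in EG 2i lines at 9.22, 8.86, 8.75 and 9.50, and in EG 2is lines at 8.90, 9.23, 9.04 and 9.12. Every 2i or 2is line lay more than 2 units under every EG FCS line. In ES FCS lines 1 to 5 it was at 11.71, 11.83, 11.55, 11.53 and 11.59, and in ES 2i lines at 9.21, 9.85, 9.63, 9.92 and 10.08, again with no overlap. In the fit Utf1 fell by 2.65 in EG 2i lines (SE 0.15, 6.26-fold, adjusted p = 1.6e-09, limma, n = 4 and 4), and in EG 2is lines it fell by 2.71 (SE 0.15, 6.55-fold, adjusted p = 5.7e-10, n = 4 and 4). In ES lines it fell by 1.90 (SE 0.13, 3.74-fold, adjusted p = 3.3e-09, n = 5 and 5). Within batch 1 it fell by 2.24 in ES lines (2 lines a group), and within batch 2 it fell by 1.68 (3 lines a group, adjusted p = 1.1e-05 and 1.9e-04). The ES fall was smaller by 0.74 than that of EG 2i lines (SE 0.20, 95% interval of the difference -1.16 to -0.32), but this difference did not pass (adjusted p = 0.0693). It passed without ES 2i line 1, ES FCS line 1 or EG 2i line 4 (adjusted p = 0.0253 to 0.0452) and was -0.40 within batch 1 (adjusted p = 0.635). Over all 35 alternatives its adjusted p ran from 0.0253 to 0.635.

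Dppa4, which encodes a subunit of the DPPA2 and DPPA4 heterodimer, fell to nearly the same level in all 3 2i groups. EG FCS lines 1 to 4 were at 9.80, 9.98, 9.83 and 9.74, EG 2i lines at 8.64, 8.74, 8.42 and 8.74, and EG 2is lines at 8.17, 8.76, 8.61 and 8.71. ES FCS lines 1 to 5 were at 9.66, 9.93, 9.45, 9.46 and 9.62, and ES 2i lines at 8.22, 8.5, 8.74, 8.56 and 8.54. The lowest serum line, at 9.45, stood above the highest 2i line, at 8.76. Dppa4 fell by 1.19 in EG 2i lines (SE 0.14, 2.28-fold, adjusted p = 5.0e-06), by 1.27 in EG 2is lines (SE 0.13, 2.41-fold, adjusted p = 1.1e-06) and by 1.11 in ES 2i lines (SE 0.12, 2.16-fold, adjusted p = 7.4e-07). Within batch 1 Dppa4 fell by 1.44 in ES lines and within batch 2 it fell by 0.89 (adjusted p = 1.5e-04 and 8.7e-04). The EG 2i and ES 2i responses differed by -0.08 (95% interval -0.46 to 0.31, adjusted p = 0.892). That interval leaves room for a response up to 0.46 larger or 0.31 smaller in EG lines.

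Dppa2, the partner of Dppa4, was high in EG 2i lines and low in ES 2i lines, with EG 2is lines between them and not called against either. EG FCS lines 1 to 4 were at 10.63, 10.73, 10.61 and 10.60, and EG 2i lines were at 10.80, 10.81, 10.79 and 10.67, as high as serum or higher. EG 2is lines were at 9.73, 10.46, 10.07 and 10.49, all under the EG FCS lines, and spread widely (SD 0.36 against 0.07 in EG 2i lines). ES FCS lines 1 to 5 were at 10.72, 10.62, 10.70, 10.52 and 10.46, and ES 2i lines at 9.52, 10.04, 9.95, 9.16 and 9.46, with no overlap. Every EG 2i line thus lay above every ES 2i line. In ES lines Dppa2 fell by 0.98 (SE 0.14, 1.97-fold, adjusted p = 1.7e-05, n = 5 and 5), by 0.89 within batch 1 and by 1.04 within batch 2 (adjusted p = 0.0117 and 0.00176). In EG 2is lines it fell by 0.49 (SE 0.16, 1.4-fold, adjusted p = 0.0255), and in EG 2i lines it differed by 0.06 (SE 0.16, 95% interval -0.28 to 0.40, adjusted p = 0.847).

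The fall of Dppa2 in EG 2is lines rested on few samples. Without EG 2is line 1, the lowest, the difference was -0.33 (adjusted p = 0.136), without EG 2is line 3 it was -0.43 (adjusted p = 0.0717), and without EG FCS line 2 it was -0.45 (adjusted p = 0.0685). With male lines only the difference was -0.55 and not called. Over its 35 alternatives 30 were called, with adjusted p from 0.00813 to 0.136. EG 2i and EG 2is lines differed by 0.55 for Dppa2 (SE 0.16, 95% interval 0.22 to 0.87), and this did not pass (adjusted p = 0.221). In that comparison 0 of the 6 genes were called by limma, 1 of them had an unadjusted p under 0.05, and 0.0% of all genes were called (0 genes, with 2116 at an unadjusted p under 0.05).

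The difference of Dppa2 between EG 2i and ES lines was tested directly. EG 2i lines were derived directly in 2i, so cell origin and the route into 2i cannot be told apart in it. The 2i response of EG 2i lines exceeded that of ES lines by 1.04 (SE 0.21, 95% interval 0.60 to 1.48, adjusted p = 0.0200), and Dppa2 was the 1 of the 6 genes called there, where 1.44% of all genes were called, 0.567% of all genes as higher. Set against ES 2i lines, EG 2i lines were higher by 1.00 (SE 0.17, 1.99-fold, adjusted p = 0.00442), again the 1 of the 6 called, against 3.72% of all genes called and 1.2% called higher. Dppa2 was also the 1 of the 6 whose arrays did not overlap there, as for 9.69% of all genes. The difference in response was 1.01 within batch 1, where ES groups held 2 lines each and 0 genes were called (adjusted p = 0.265), and without EG FCS line 1 it was 0.98 (adjusted p = 0.0534). Its adjusted p ran from 0.00849 to 0.265 over 35 alternatives, 32 of them called. With male lines only, which leaves 1 EG 2i line, the difference in response was 1.01. There EG 2i minus ES 2i was 0.83. With only the EG 2i and ES 2i groups in the fit the direct difference was 0.95 (adjusted p = 0.141, range over 34 alternatives 2.8e-04 to 0.291). EG 2is lines, moved to 2i after 48 hours in serum, had a response 0.49 above that of ES lines (SE 0.21, adjusted p = 0.484). In that comparison 0 of the 6 were called by limma, 2 had an unadjusted p under 0.05, and 0.0301% of all genes were called.

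**Figure D2:**
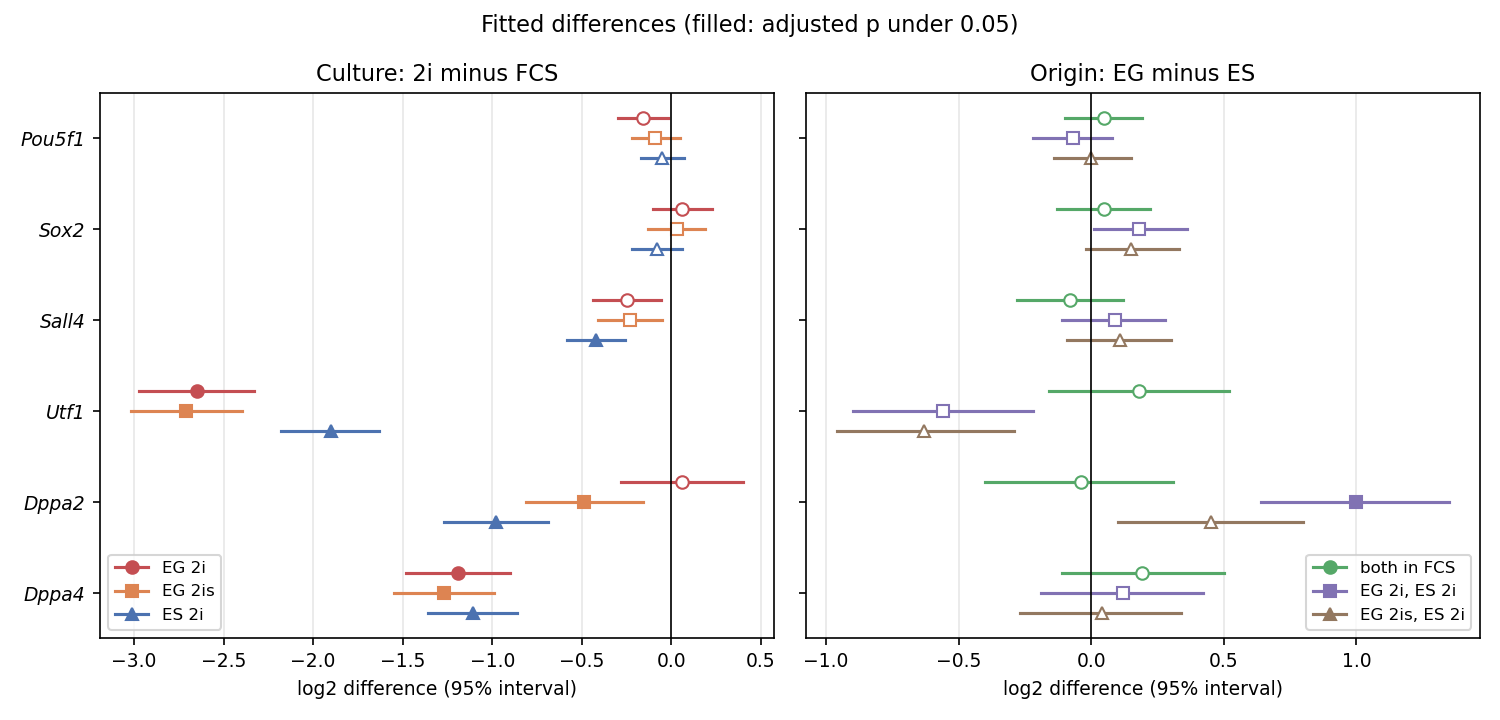
Fitted log2 differences with 95% intervals (horizontal axis) for the 6 genes (rows), on the left each 2i group minus its serum group and on the right EG minus ES lines, filled where the adjusted p was under 0.05. Utf1 and Dppa4 lay far left of 0 in all 3 culture comparisons, Dppa2 only for ES 2i and EG 2is lines, and among EG minus ES differences only that of Dppa2 in 2i, at 1.00, was filled.

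Dppa2 and Dppa4 each had a pair of probe sets, and the second gave the same calls. On the second Dppa2 probe set EG FCS lines 1 to 4 were at 9.86, 9.91, 9.82 and 9.76, EG 2i lines at 10.16, 10.15, 9.74 and 9.68, and EG 2is lines at 8.70, 9.70, 9.09 and 9.30. ES FCS lines 1 to 5 were at 10.26, 9.80, 10.19, 9.87 and 9.67, and ES 2i lines at 8.53, 8.82, 8.91, 7.94 and 8.0. The EG 2i lines again overlapped serum and lay above all ES 2i lines. With it Dppa2 fell by 1.52 in ES lines (adjusted p = 1.4e-06), by 0.70 in EG 2is lines (adjusted p = 0.0101), and differed by -0.03 in EG 2i lines (adjusted p = 0.937). Its fall in ES lines was thus over 1.5 times that of the brighter probe set on the log2 scale. The difference between EG 2i and ES responses was 1.48 (SE 0.26, adjusted p = 0.0107). The second Dppa4 probe set fell by 1.08 in EG 2i, 1.29 in EG 2is and 1.18 in ES 2i lines (adjusted p = 5.2e-07, 2.1e-08 and 8.5e-09). The annotation gives both probe sets of a gene the same gene and RefSeq accessions, and whether either also reads a near-identical copy was not tested.

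**Figure D3:**
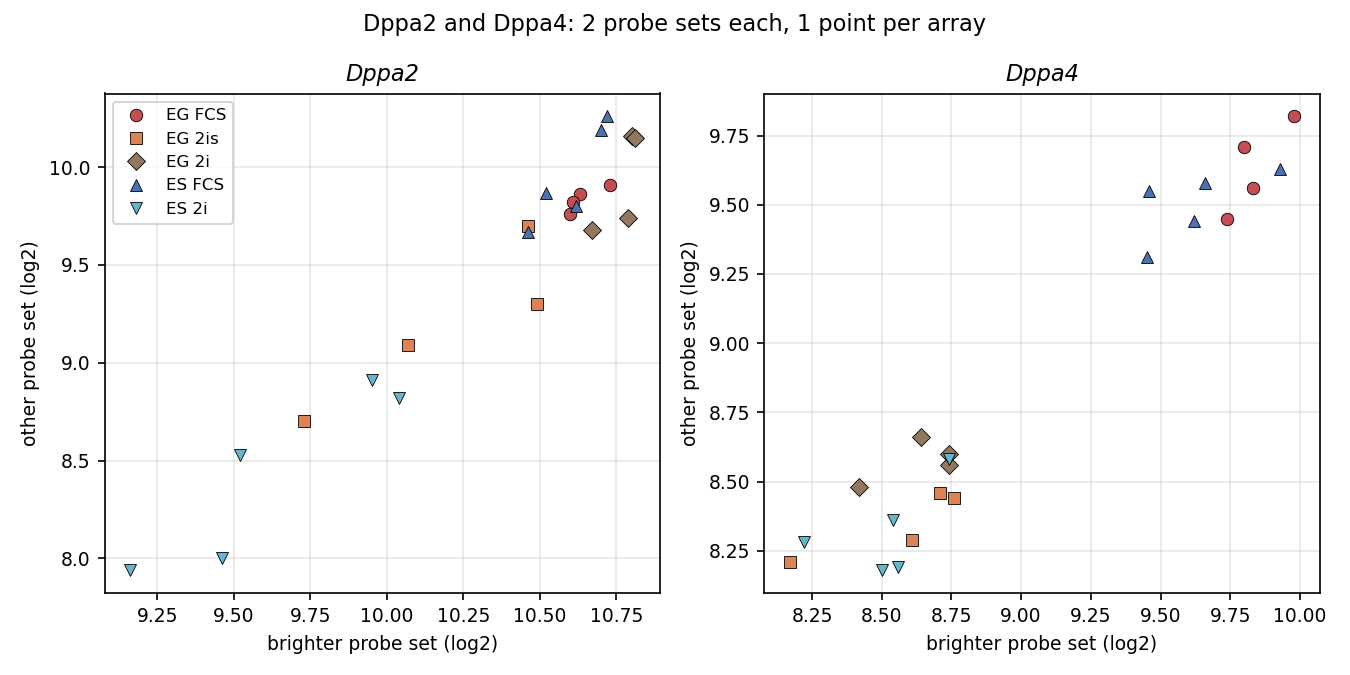
Log2 level of the second probe set (vertical axis) against the brighter probe set (horizontal axis) of Dppa2 (left) and Dppa4 (right), 1 point per array, with colour and shape for the group; axis ranges differ between panels. For Dppa2 the EG 2i lines lay among the serum lines at the top right and the ES 2i lines at the lower left, while for Dppa4 all 2i and 2is lines formed 1 cloud under the serum lines.

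Sall4, the zinc finger partner of OCT4, fell by less. ES FCS lines 1 to 5 were at 9.79, 9.71, 10.04, 9.97 and 10.09, and ES 2i lines were at 9.72, 9.41, 9.37, 9.52 and 9.50, so that only ES 2i line 1 reached the lowest serum line. Sall4 fell by 0.42 in ES lines (SE 0.08, 1.34-fold, adjusted p = 2.7e-04). The difference was larger in batch 2, where it fell by 0.57 (adjusted p = 0.00170), while in batch 1 the difference was -0.19 (adjusted p = 0.267). EG FCS lines 1 to 4 were at 9.83, 9.83, 9.67 and 9.72, EG 2i lines at 9.60, 9.59, 9.63 and 9.41, and EG 2is lines at 9.63, 9.40, 9.54 and 9.65. No EG 2i or EG 2is line reached the lowest EG FCS line. The fitted differences were -0.25 for EG 2i lines (SE 0.09, adjusted p = 0.0503) and -0.23 for EG 2is lines (SE 0.09, adjusted p = 0.0587), just outside the threshold. Of 35 alternatives each, 11 and 5 were called, with adjusted p from 0.0142 to 0.223 and from 0.0206 to 0.190. Those called included batch 1 alone, at -0.28 in EG 2i and -0.24 in EG 2is lines (adjusted p = 0.0145 and 0.0206). The EG 2i difference was also called with only the groups compared (adjusted p = 0.0427). Both comparisons were called without EG 2is line 1, without ES FCS line 5 and without ES 2i line 1 or 3. Without ES FCS line 1 that of EG 2i was called. The EG 2i and ES responses of Sall4 differed by 0.17 (95% interval -0.08 to 0.41, adjusted p = 0.527).

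Pou5f1, the OCT4 gene, hardly moved. EG FCS lines 1 to 4 were at 11.64, 11.65, 11.64 and 11.70, EG 2i lines at 11.38, 11.59, 11.66 and 11.49, and EG 2is lines at 11.53, 11.49, 11.65 and 11.67. ES FCS lines 1 to 5 were at 11.61, 11.59, 11.69, 11.61 and 11.60, and ES 2i lines at 11.56, 11.67, 11.66, 11.43 and 11.55. The lowest array was EG 2i line 1 at 11.38 and the highest EG FCS line 4 at 11.70. Each group overlapped its neighbours in the order of means. Differences from serum were -0.16 in EG 2i (95% interval -0.30 to -0.02, adjusted p = 0.0941), -0.09 in EG 2is (-0.22 to 0.05, adjusted p = 0.369) and -0.05 in ES 2i lines (-0.17 to 0.07, adjusted p = 0.610). The intervals allow at most a fall of 0.30, in EG 2i lines. Its pooled SD within groups was 0.08, against a median of 0.13 over all genes, and 8.6% of genes had a smaller one. Pou5f1 has several pseudogene copies in the mouse genome, and whether its probe set reads them was not tested.

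Sox2 was not called between cultures, and its 2i lines lay further apart than its serum lines. EG FCS lines 1 to 4 were at 11.52, 11.54, 11.64 and 11.47 (SD 0.07), and ES FCS lines 1 to 5 at 11.60, 11.52, 11.49, 11.48 and 11.54 (SD 0.05). The SD was 0.18 in EG 2i, 0.14 in EG 2is and 0.16 in ES 2i lines, whose means were 11.69, 11.62 and 11.45, and whether the spreads differ was not tested. Differences from serum were 0.06 in EG 2i (95% interval -0.10 to 0.23, adjusted p = 0.636), 0.03 in EG 2is (-0.13 to 0.19, adjusted p = 0.820) and -0.08 in ES 2i lines (-0.22 to 0.06, adjusted p = 0.451). These come from a fit with 1 sex term for both cultures. With male lines only the differences were -0.08 in EG 2i, with 1 line, and -0.04 in EG 2is lines. In male ES 2i lines the difference was -0.17 (95% interval -0.33 to -0.02), not called (adjusted p = 0.0897, limma).

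The spread of Sox2 in 2i went with the sex label. Female EG 2i lines 1, 2 and 3 were at 11.61, 11.83 and 11.84 and male line 4 at 11.47. Female EG 2is lines 3 and 4 were at 11.65 and 11.80 and male lines 1 and 2 at 11.53 and 11.49. Female ES 2i lines 1 and 3 were at 11.59 and 11.64 and male lines 2, 4 and 5 at 11.30, 11.36 and 11.35. All 7 female 2i and 2is lines (11.59 to 11.84) thus lay above all 6 male ones (11.30 to 11.53), as the sexes separated for 1.32% of all genes. With a sex term in each culture, Sox2 was higher in female 2i and 2is lines by 0.26 (SE 0.05, 1.2-fold, adjusted p = 0.00774), the 1 of the 6 genes called, against 5.17% of all genes called and 3.05% called higher in females. Within batch 1 the difference was also 0.26 (adjusted p = 0.0787), and over 30 alternatives the adjusted p ran from 0.00141 to 0.0787.

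In serum the sexes overlapped for Sox2, with 3 females between 11.49 and 11.60 and 6 males between 11.47 and 11.64, and differed by 0.01 (SE 0.06, 95% interval -0.12 to 0.14, adjusted p = 0.995). The sex difference was larger in 2i than in serum by 0.25 (SE 0.08, 95% interval 0.08 to 0.42), which did not pass over all genes (adjusted p = 0.683). In that comparison 0 of the 6 and 0.0% of all genes were called by limma (0 genes, with 1250 at an unadjusted p under 0.05). Utf1 was lower in female 2i and 2is lines by 0.35 (SE 0.11), not called (adjusted p = 0.0826), and was called without EG 2is line 1 or EG 2i line 1 (adjusted p = 0.0362 and 0.0459). In serum 0 of the 6 genes were called between the sexes by limma, 0 had an unadjusted p under 0.05, and 0.0251% of all genes were called.

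**Figure D4:**
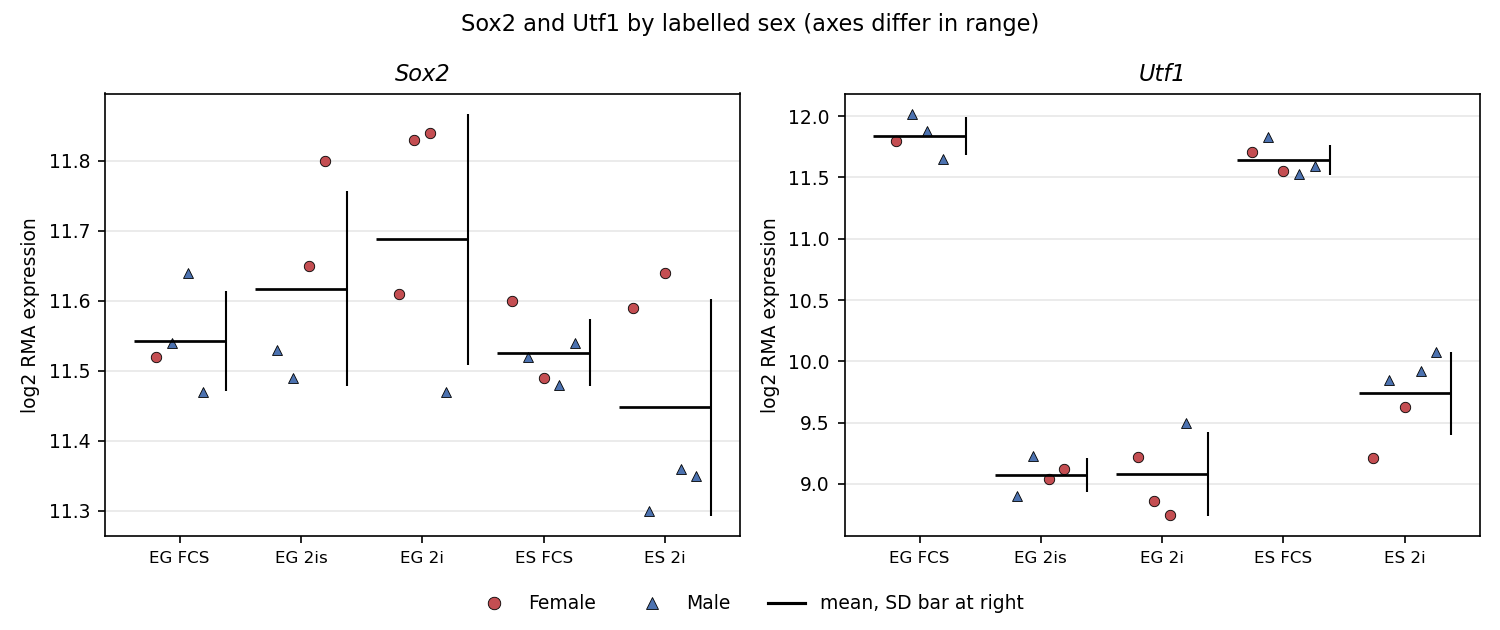
Log2 RMA expression (vertical axes, which differ in range) of Sox2 (left) and Utf1 (right) in the 5 groups, 1 point per array, red circles for female and blue triangles for male lines, with the group mean and a bar of 1 SD. In each of the 3 2i groups every female line lay above every male line for Sox2, from 11.59 up against 11.53 and below, while in serum the sexes overlapped.

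Between origins in serum the 6 genes differed little. EG FCS minus ES FCS lines were 0.18 for Utf1 (SE 0.16), 0.19 for Dppa4 (SE 0.15), -0.04 for Dppa2 (SE 0.17), -0.08 for Sall4 (SE 0.09), 0.05 for Sox2 (SE 0.08) and 0.05 for Pou5f1 (SE 0.07). Of the 6, 0 were called by limma and 0 had an unadjusted p under 0.05, while 0.01% of all genes were called. The intervals were widest for Dppa2, from -0.40 to 0.31, and narrowest for Pou5f1, from -0.10 to 0.19. In 2i Utf1 was lower in EG 2i than in ES 2i lines by 0.56 (SE 0.16, adjusted p = 0.0582), and 7 of 34 alternatives called it, among them the fits without ES 2i line 1, EG 2i line 1 or EG 2i line 4 (adjusted p = 0.0213 to 0.0465). Against ES 2i lines, EG 2is lines had no call among the 6 (2 at an unadjusted p under 0.05, 0.0451% of all genes called), with Utf1 at -0.63 (SE 0.16, adjusted p = 0.184) and Dppa2 at 0.45 (SE 0.17, adjusted p = 0.395).

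Lines of a group were not equally far from their group's mean. In EG 2is lines, line 1 was the lowest for Utf1, Dppa2 and Dppa4 together, at 8.90, 9.73 and 8.17. In ES 2i lines, line 1 was the lowest for Utf1 and Dppa4, at 9.21 and 8.22, but the highest for Sall4, at 9.72. The pooled SD within groups was 0.24 for Utf1, 0.24 for Dppa2 and 0.19 for Dppa4, and at most 0.13 for Pou5f1, Sox2 and Sall4.

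Other shared pluripotency genes moved in both directions. Of 14 measured, 2 rose and 6 fell in EG 2i lines, 1 rose and 6 fell in EG 2is lines, and 2 rose and 6 fell in ES 2i lines, with medians of -0.25, -0.26 and -0.38. Of all genes 11.4%, 12.7% and 16.6% rose and 12.5%, 12.9% and 14.9% fell in these comparisons. The same shares stand beside the counts of each list below. Lin28a, the RNA-binding protein gene that blocks let-7, fell by 3.37 in EG 2i lines (SE 0.28, adjusted p = 9.2e-08) and fell by 2.29 in ES lines (SE 0.23, adjusted p = 4.7e-07). Trim71, an RNA-binding ubiquitin ligase, fell by 0.88 in EG 2i lines (adjusted p = 3.2e-06), and Zfp281, a zinc finger factor, fell by 0.60 in EG 2i and 0.79 in ES lines (adjusted p = 2.3e-04 and 1.1e-06). L1td1, an RNA-binding protein derived from a LINE-1 element, fell by 0.52 in ES lines (adjusted p = 4.2e-06).

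Known targets of the OCT4 and SOX2 composite element went both ways while Pou5f1 and Sox2 were not called between cultures. Of 8 measured, Pou5f1, Sox2 and Utf1 among them, 2 rose and 3 fell in EG 2i lines, 2 rose and 3 fell in EG 2is lines, and 3 rose and 3 fell in ES lines. Besides Utf1, Lefty1, a Nodal antagonist, fell by 4.06 in EG 2i lines (SE 0.74, adjusted p = 4.4e-04), and Fbxo15, an F-box gene, rose by 0.48 there (SE 0.09, adjusted p = 1.0e-03, and 0.159 with male lines only). In ES lines Zscan10, a zinc finger factor, fell by 0.61 (adjusted p = 5.3e-05) and Fgf4, the growth factor that drives ERK in these cells, rose by 0.59 (adjusted p = 2.8e-04, and adjusted p = 0.219 in batch 1).

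Relatives of the 6 genes were also measured. Of 8 paralogs 1 rose and 1 fell in EG 2i lines, 0 rose and 1 fell in EG 2is lines, and 1 rose and 3 fell in ES lines. The EG 2i counts are near the shares of all genes there, 11.4% up and 12.5% down. Pou3f1 (OCT6), a POU factor of the primed epiblast, fell by 0.34 in EG 2i, 0.30 in EG 2is and 0.55 in ES lines (adjusted p = 0.00367, 0.00543 and 3.5e-06), and with male lines only neither EG difference was called (adjusted p = 0.239 and 0.143). Sox3, the closest relative of Sox2, fell by 0.64 in ES lines (adjusted p = 0.00889, and 0.178 in batch 1). Pou3f2 rose by 0.32 there (adjusted p = 0.0335), a call lost without any 1 of ES FCS lines 1, 4 and 5 or ES 2i lines 2, 4 and 5 (adjusted p = 0.0611 to 0.105). It was 0.12 with the mean of its probe sets (adjusted p = 0.297), 0.19 within batch 1 (adjusted p = 0.589) and not called with male lines only (adjusted p = 0.0623). Sall3 rose by 0.33 in EG 2i lines (adjusted p = 0.0192), which was lost without EG 2i line 3 or 4 (adjusted p = 0.0542 and 0.142) and with only the groups compared (adjusted p = 0.0630).

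Subunits of NuRD, the complex that SALL4 binds, changed by small amounts. Of 11 measured 0 rose and 6 fell in EG 2i lines, 1 rose and 5 fell in EG 2is lines, and 3 rose and 4 fell in ES lines, with medians of -0.26, -0.17 and -0.11. Mbd3, the methyl-CpG-binding domain subunit, fell by 0.67 in EG 2i and 0.46 in ES lines (adjusted p = 5.0e-06 and 2.6e-05). Gatad2a fell by 0.44 and 0.36 (adjusted p = 3.8e-04 and 3.9e-04, the former 0.0761 with male lines only and the latter 0.0591 in batch 1), and Mta3 fell by 0.66 in EG 2i lines (adjusted p = 5.5e-04). Hdac2, a deacetylase, rose by 0.41 in ES lines (adjusted p = 2.0e-04).

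Few genes known to depend on DPPA2 and DPPA4 were measured, and those called in EG lines went both ways. Of 9 listed, 5 were measured by a probe set of their own, and 1 rose and 1 fell in EG 2i lines, 1 rose and 1 fell in EG 2is lines, and 0 rose and 1 fell in ES lines. Mael, a piRNA pathway gene, fell by 1.91 in EG 2i, 2.22 in EG 2is and 2.51 in ES lines (adjusted p = 2.5e-05, 2.2e-06 and 7.4e-08). Syce1, a synaptonemal complex gene, rose by 1.37 in EG 2i lines (SE 0.22, adjusted p = 1.3e-04) and by 0.92 in EG 2is lines (adjusted p = 0.00278), and was at 0.44 in ES lines (adjusted p = 0.0842). Syce1 was also higher in female 2i and 2is lines by 0.70 (adjusted p = 0.0141, and 0.0653 without EG 2i line 4). Zfp352, Tcstv3 and Nkx2-5 were not called in any of these 3 comparisons, and each of their group means lay under 5.6. Without ES FCS line 1 or 5 the ES difference of Zfp352, -0.72, became -0.89 or -0.90 and was called (adjusted p = 0.0379 and 0.0317), as it was with male lines only (-0.37, adjusted p = 0.0482).

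Among all other genes, those with the most similar pattern differed from member to member. Pearson correlations of log2 levels over the 22 arrays are given as a description, since arrays share cultures and may share lines. By these Utf1 was most like Enox1 (0.981), Slc7a7 (0.980) and Enpp3 (0.975), and Dppa4 was most like Zfp367 (0.978), Stk17b (0.973) and Fosb (0.967). Utf1 and Dppa4 stood at 0.941 with each other. Dppa2 was most like Zfp219 (0.914), Usp31 (0.902) and Colec12 (0.896), and stood at 0.568 with its partner Dppa4. Zfp219 averaged 7.99 in EG FCS, 7.89 in EG 2i, 7.59 in EG 2is, 7.90 in ES FCS and 7.23 in ES 2i lines, the order of Dppa2 but for EG 2i. Sall4 was most like Fosl1 (0.928), Clns1a (0.916) and Syt5 (0.909), Sox2 like Ndn (0.895), H2-Ab1 (0.889) and Map7d2 (0.885), and Pou5f1 like Ilrun (0.872), Slc35e1 (0.811) and Nono (0.789). Pou5f1 and Sox2 stood at 0.233 with each other.

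Markers of other cells moved with the cultures. The mean of 17 feeder fibroblast markers was at 5.81 to 6.67 in EG FCS and 5.87 to 6.56 in ES FCS lines, against 5.08 to 5.16 in EG 2i, 4.97 to 5.17 in EG 2is and 4.81 to 5.18 in ES 2i lines. Of the 17, 11 fell in EG 2i, 12 in EG 2is and 14 in ES 2i lines and 0 rose, among them Acta2 (smooth muscle actin), which fell by 4.5 in EG 2i and fell by 4.05 in ES lines, and Thbs1 (thrombospondin), which fell by 4.24 and fell by 4.28. Acta2 and Thbs1 had the smallest adjusted p of the list in EG 2i and in ES 2i lines, and most markers changed by less. The median difference of the 17 was -0.49 in EG 2i, -0.51 in EG 2is and -0.8 in ES 2i lines. Not called in EG 2i lines were Postn (-0.54), Pdgfra (-0.33), Lum (-0.18), Twist2 (-0.11), Twist1 (-0.07) and Pdgfrb (0.41). The feeder markers that fell had the same direction as Utf1, Dppa4 and Sall4, and their part in those falls was not tested. Of 11 early differentiation markers 2, 3 and 3 fell and 0 rose in the same comparisons, among them Fgf5 of the primed epiblast, which fell by 1.82 in ES lines (adjusted p = 8.6e-07). Between EG 2i and ES 2i lines 0 of the 17 feeder markers were called, and of the 11 differentiation markers 1 was, Nes, an intermediate filament gene of neural progenitors, higher by 0.88 in EG 2i lines (adjusted p = 0.0201). Nes group means lay between 4.99 and 5.83. Those of Pax6, a neural transcription factor, lay between 4.97 and 6.28, where array medians were 5.54 to 5.62. In the difference of responses Nes was at 1.34 (adjusted p = 0.0144) and Pax6 at 0.77 (adjusted p = 0.0402), in the same direction as Dppa2. Their part in the Dppa2 difference was not tested. None of these 3 calls held within batch 1 (adjusted p = 0.115, 0.300 and 0.424) or with male lines only (adjusted p = 0.240, 0.104 and 0.180). The direct Nes difference was also lost without EG 2i line 3 or ES 2i line 1 (adjusted p = 0.0589 and 0.0506), and that of Pax6 without any 1 of EG FCS lines 1, 2 and 3, EG 2i lines 1, 3 and 4, ES FCS lines 4 and 5 or ES 2i lines 4 and 5 (adjusted p = 0.0504 to 0.0884). Of 8 primordial germ cell markers 3 rose and 3 fell in EG 2i, 3 rose and 3 fell in EG 2is, and 3 rose and 4 fell in ES lines. Dazl, a translational regulator of the germline, rose by 2.69 and 1.72 in EG 2i and ES lines (adjusted p = 1.2e-06 and 1.2e-05). Ddx4, from the same list, fell by 1.14 and 1.61 there (adjusted p = 0.00278 and 1.2e-05). Nanog, a defining marker of pluripotent cells beside Pou5f1, stood at 11.35 to 12.16 in EG FCS and 11.52 to 12.12 in ES FCS lines, and at 12.26 to 12.64 in EG 2i, 12.33 to 12.55 in EG 2is and 12.24 to 12.44 in ES 2i lines. It rose by 0.73, 0.66 and 0.60 in EG 2i, EG 2is and ES 2i lines, with no overlap of arrays (adjusted p = 0.00430, 0.00599 and 0.00360). Without EG FCS line 1 the EG differences were 0.51 and 0.46 and not called (adjusted p = 0.0520 and 0.0545), nor were they with male lines only (adjusted p = 0.138 and 0.106), and within batch 1 the ES difference of 0.60 was not called (adjusted p = 0.166).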

How the data were processed

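Total RNA was hybridised to Affymetrix mouse gene arrays. The deposited values are log2 expression values per probe set, and per the submitters' processing notes Affymetrix Expression Console, RMA and limma were used by the authors. Versions and any batch adjustment were not stated. RMA normalizes arrays to a common distribution, so a change shared by most genes would not be seen. Of 28853 probe sets, 21789 had 1 gene symbol, 1621 several and 5443 none. Of the first, 21698 matched the RefSeq gene table by Entrez ID, with 0 symbols changed. The brightest probe set stood for a gene (19938 genes, 1851 further probe sets set aside), and listed genes without one of their own were left out.

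All arrays were fitted with limma 3.58.1 in R 4.3.3 (lmFit, eBayes) with group, batch and sex terms, and sex differences with a sex term in each culture. Tables and figures were made in Python 3.11.15. Members and lists were chosen with earlier results of these data known. Other genes were named by rule: of each list up to 3 called members with the smallest adjusted p in EG 2i and in ES 2i against serum, up to 2 in other comparisons, and the 3 most similar genes per member. Nanog, Zfp352, Tcstv3 and Nkx2-5 were added by choice. Alternatives were covariates, scaling, probe sets, a filter at a mean of 5, the variance model, groups, batches, a replicate block and leaving out each array. Male lines alone, the second probe sets and the difference of the sex terms were added after seeing the data.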

Additional observations from a re-analysis of the deposited data

Results flagged for a closer look

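For Dppa2 the response to 2i differed between EG 2i and ES lines: EG 2i minus EG FCS exceeded ES 2i minus ES FCS by 1.04 on the log2 scale (limma, adjusted p = 0.0200). For EG 2is lines, moved to 2i after 48 hours in serum, the response exceeded that of ES lines by 0.49 (limma, adjusted p = 0.484). Cell origin and the route into 2i cannot be told apart in the EG 2i difference. In each group 1 array far from the rest was looked for, in 30 gene and group pairs, and about 1 in 20 would stand apart by chance. Pou5f1 in ES FCS line 3, at 11.69, was separated from the next line by 0.777 of the group's range. Dppa2 in EG 2i line 4, the male line, was at 10.67, separated by 0.866 of a range that spans only 10.67 to 10.81.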

How the results depend on the processing

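Of 2418 values of the 6 genes under alternative settings 2374 kept their direction and side of the threshold or were uncalled in both, 12 lost a call, 32 gained one and 0 reversed. The falls of Utf1 and Dppa4 in all 3 culture comparisons and of Dppa2 in ES lines were called under every alternative. Only with the groups compared in the fit, Dppa2 in EG 2is lines was at -0.48 (adjusted p = 0.0571). Counts of genes called moved by over 1.5 times as follows, and the cause was not tested. Without the sex term 4 were called for EG 2is against ES 2i (9 otherwise). Without the batch term 6, 1758 and 33 were called for EG against ES in FCS, for EG 2i and for EG 2is against ES 2i (2, 742 and 9 otherwise), and with groups only 4, 1957 and 0, with 438 and 2 for the differences of the 2i and 2is responses (287 and 6 otherwise). Fitting only the groups compared gave 1 for EG 2i against 2is (0 otherwise), 1 for EG against ES in FCS, and 15 and 0 for EG 2i and 2is against ES 2i. Batch 1 alone, with fewer samples, gave 2460 for ES 2i against FCS (6298 otherwise), 1 and 201 for EG against ES in FCS and EG 2i against ES 2i, 0 and 0 for the differences of responses, and 2 and 207 between sexes in FCS and 2i (5 and 1031 otherwise). Male lines alone gave 2282 for EG 2i against FCS (4764 otherwise), 4, 7 and 70 for EG against ES in FCS, 2i and 2is, and 33 and 89 for the differences of responses. With a replicate block the count was 1 for EG 2i against 2is and 82 for the difference of the 2i responses, and the block changed no call of the 6 genes: Dppa2 there was at 1.00 (adjusted p = 0.0489). Other genes named in the text lost calls with it: Sall3 in EG 2i lines (0.30, adjusted p = 0.0858), Pou3f2 in ES lines (0.32, adjusted p = 0.0525) and Pax6 in the difference of responses (0.77, adjusted p = 0.0830). The labels do not say whether samples of the same number share a line. In ES groups same numbers carry the same sex and batch, while in EG groups the sexes do not all match. Deviations of same numbers correlated at -0.01 to 0.24 in ES lines, over 0.1 in 2 of 5 pairs, and at -0.56 to 0.32 between EG groups. These correlations cannot tell whether a line is shared. Leaving out 1 array gave 3441 to 4913 for EG 2i and 3973 to 5348 for EG 2is against FCS, 5546 to 6439 for ES 2i against FCS, 2 to 4 for EG against ES in FCS, 301 to 872 and 1 to 43 for EG 2i and 2is against ES 2i, 110 to 390 and 4 to 25 for the differences of responses, 2 to 11 and 586 to 1804 between sexes in FCS and 2i, and 0 to 2 for the difference of the sex terms.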
